A study of Mus musculus with 594 samples.

Results

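Potassium channel genes were described here as the genes whose symbol in the array annotation begins with Kcn, with Kcnk2 left out. A gene was taken from probe sets that the annotation gives 1 symbol, and where it had several the probe set with the highest mean over all arrays stood for it. The rule found 59 genes among the 11807 genes of the table, from 86 probe sets, and 20 of the 59 had more than 1 probe set. By the prefix of the symbol they fell into 13 inward rectifiers, 7 tandem-pore channels, 18 voltage-gated subunits, 6 channels grouped as calcium- or sodium-activated and 15 accessory subunits. The group of 6 includes Kcnu1, a pH-gated channel. The rule reads the symbols alone, apart from the mean level that chose between probe sets of 1 gene, and it was chosen with earlier results of these data known.

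Potassium channels let potassium leave the cell and so set the resting potential and end each action potential. In islet endocrine cells the ATP-sensitive channel closes when glucose is metabolised, the membrane depolarises, voltage-gated calcium channels open and hormone is secreted. Voltage-gated and calcium-activated channels then repolarise the membrane, and tandem-pore channels carry the leak current at rest.

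The study measured mRNA on 594 Affymetrix mouse arrays in αTC1 (299 arrays) and βTC3 (295 arrays), mouse tumour lines with alpha-cell and beta-cell features, each treated with 1 of 29 compounds or with the DMSO solvent for 1, 6 or 24 h. All cells were grown in low-glucose medium with serum, and the compounds were added in DMSO. A line stands for cells in culture, and each of the lines is 1 tumour-derived population. Compounds had 3 arrays for each line and time, except for 2 arrays in αTC1 at 24 h for BRD-K62233722, BRD-K92415738, CI-994, SAHA and scriptaid, and 4 there for chaetocin. DMSO had 14 arrays at each of 6 and 24 h in αTC1, and 10 at 6 h and 12 at 24 h in βTC3. The labels do not say whether replicates came from separate cultures, so p-values measure the spread between arrays of the same treatment, which may be technical.

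The compounds act on enzymes that modify chromatin, and their doses differed. The 8 hydroxamic acids, inhibitors of histone deacetylases, were trichostatin A (0.22 µM), SAHA (1.3 µM), LBH-589 (0.015 µM), PXD101 (2.4 µM), ITF-2357 (10 µM), CRA-024781 (1.5 µM), pyroxamide (10 µM) and scriptaid (2 µM). The 3 ortho-amino anilides, inhibitors of class I deacetylases, were MS-275 (2.9 µM), CI-994 (10 µM) and MGCD-0103 (1.1 µM), and the 2 cyclic tetrapeptides were apicidin (1.4 µM) and HC-toxin (0.12 µM). BIX-01294 and chaetocin, inhibitors of histone methyltransferases, were given at 10 and 1.7 µM, AMI-1, an inhibitor of arginine methyltransferases, at 10 µM, and 5-azadeoxycytidine, zebuarine and RG-0108, agents directed at DNA methylation, at 10 µM each. The other 10 carry code names that begin with BRD and were given at 0.91 to 10 µM. A class value below is the mean effect of its compounds, each with equal weight, with 24 hydroxamic acid arrays (22 in αTC1 at 24 h) and 9 anilide arrays (8 in αTC1 at 24 h). Each class was set against DMSO of the same line and time in a limma fit with the array batch as a term, and a gene passed the test at a Benjamini-Hochberg adjusted p under 0.05 over all 11807 genes. Every compound had a coefficient of its own in this fit. The SE and p-value of a class value thus leave out the spread between its compounds, and hold for these compounds at these doses only.

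In DMSO at 24 h the lines carried most markers of their labels. The mean log2 intensity was 12.3 in αTC1 and 8.79 in βTC3 for Gcg, which encodes glucagon, and 7.48 against 3.08 for the alpha-cell factor Irx1. Of the 5 alpha-cell markers 4 were higher in αTC1 and 1, Ttr, was lower there (11.4 against 12.9 in βTC3). Ins2, an insulin gene, stood at 4.31 in αTC1 and 13.2 in βTC3, and the beta-cell factor Pdx1 at 4.0 against 9.20. The βTC3 cells also had Sst, the somatostatin gene, at 12.7 against 4.0 in αTC1, and the mature beta-cell markers Slc2a2 and Ucn3 stood at 2.98 and 2.96 in βTC3, as low as in αTC1 (2.92 and 3.03). Of the 8 beta-cell markers 5 were lower in αTC1 and 0 higher. Of 8 acinar and duct markers 2 were higher in αTC1 and 0 lower. Among these Krt7 stood at 7.31 in αTC1 and 4.87 in βTC3, and Cela1 at 6.05 and 2.97. Of all genes 30.7% were higher and 28.9% lower in αTC1. All 6 fibroblast, endothelial and blood markers averaged under 4 in both lines, between 2.67 for Col3a1 and 3.86 for Cd68.

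The potassium channel genes were dim on this array. Only 4 of the 59 (Kcnh2, Kcnip3, Kcnk1 and Kcnk3) had a mean at or above the median gene's 5.01, and 55 lay below it. Intensity arrays compress differences at the low end, so a small change of a dim gene can understate the change of its RNA. Levels are given here for the same gene across samples and never between genes, since probe sets differ in their response. The samples are bulk cell lysates, in which fewer cells with a transcript and less of it per cell cannot be told apart.

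Before any compound, the lines differed in which potassium channel genes were bright. In DMSO 16 members were higher and 7 lower in αTC1 than in βTC3 at 6 h, where 30.1% of all genes were higher and 28.5% lower. At 24 h 13 members were higher and 10 lower, against 30.7% and 28.9% of all genes. The median absolute difference was 0.12 log2 units over the members and 0.25 over all genes at 6 h, and 0.11 against 0.25 at 24 h. At either time 4 members (Kcnk3, Kcnip3, Kcnc4 and Kcnk13) had every αTC1 array above every βTC3 array and 3 (Kcnip1, Kcnmb2 and Kcnh1) had every αTC1 array below, while the other 52 overlapped. The share of all genes without overlap was not counted, so these counts do not set the family apart from other genes.

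Kcnk3, which encodes the acid-sensitive tandem-pore channel TASK-1, ranged over 5.92, 6.4 and 6.78 (lowest, median, highest log2 intensity) in αTC1 and over 3.57, 3.93 and 4.39 in βTC3 in DMSO at 24 h. The lines did not overlap, and the difference was 2.44 ± 0.08 (SE; limma adjusted p 9.43e-20). Kcnk13, a tandem-pore channel inhibited by halothane, ranged over 4.88, 5.23 and 5.78 in αTC1 and over 3.54, 3.83 and 4.27 in βTC3, a difference of 1.43 ± 0.08. Kcnip3, a calcium-binding protein of the KChIP family that also binds DNA as a repressor, ranged over 6.58, 6.92 and 7.60 in αTC1 against 4.25, 5.16 and 6.24 in βTC3. Its difference was 1.87 ± 0.14, and a second probe set gave 1.59. Kcnc4, a rapidly inactivating voltage-gated subunit, differed by 1.75 ± 0.12, but its other probe set differed by 0.17 only.

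The widest gaps lay on the βTC3 side. Kcnmb2, an auxiliary subunit that inactivates the large-conductance calcium-activated channel, ranged over 3.13, 3.62 and 4.03 in αTC1 and over 6.46, 6.77 and 7.42 in βTC3, a difference of -3.21 ± 0.10 (limma adjusted p 6.75e-20). The pore of that channel, Kcnma1, averaged 3.60 ± 0.19 in αTC1 and 4.12 ± 0.29 in βTC3 (SD, n = 14 and 12) and was lower in αTC1 by a log2 difference of -0.52. Kcnip1, a KChIP subunit that shapes A-type currents of Kv4 channels, ranged over 3.24, 3.44 and 3.70 in αTC1 and over 5.99, 6.64 and 7.54 in βTC3, a difference of -3.28 ± 0.12. Another of its probe sets gave -2.98 and the remaining ones -0.20 and 0.03. Kcnh1, a voltage-gated channel of the ether-à-go-go family, differed by -1.06 ± 0.11 and Kcnd1, a Kv4 pore, by -0.45. All 7 members whose lines did not overlap at 24 h kept the sign of their difference at 6 h, between -3.33 for Kcnmb2 and 2.44 for Kcnk3.

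Other members differed less between the lines. Kcnj11, the pore of the ATP-sensitive channel, averaged 4.38 ± 0.33 in αTC1 and 4.09 ± 0.20 in βTC3, a difference of 0.30 at 24 h (limma adjusted p 0.0062). Kcnh2, the HERG channel, was higher in αTC1 by 0.47 and Kcnn1, a small-conductance calcium-activated channel, by 0.54, although a second probe set of Kcnn1 differed by 0.06. Kcnk1, the tandem-pore channel TWIK-1, averaged 6.86 ± 0.23 in αTC1 and 6.67 ± 0.34 in βTC3 and did not pass the test (limma adjusted p 0.148). Kcnq1, a voltage-gated channel that pairs with Kcne subunits, was at 3.43 ± 0.18 in αTC1 against 3.26 ± 0.22 in βTC3, and Kcnj6, a G-protein-gated inward rectifier, at 3.21 ± 0.17 against 3.40 ± 0.25, near the low end of the scale in both lines. With each array centred on its median, the members split into 25 higher and 7 lower in αTC1 at 24 h and into 25 and 6 at 6 h, while 66.1% and 66.6% of all genes passed, so the split between directions depended on the scaling.

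**Figure D1:**
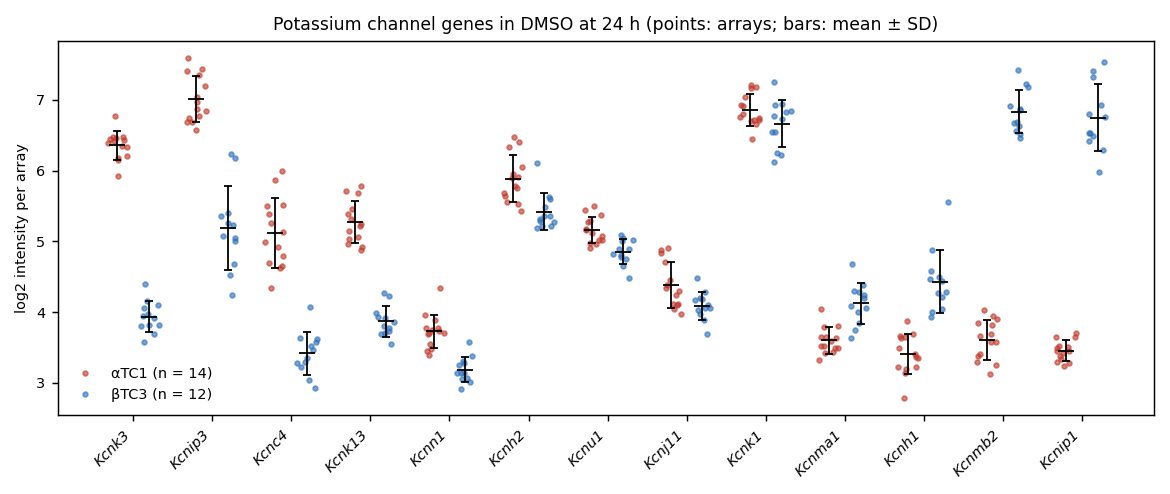
Log2 intensity of 13 potassium channel genes in DMSO at 24 h, with each point 1 array and each bar the mean ± SD (αTC1, n = 14, and βTC3, n = 12). Kcnk3, Kcnip3, Kcnc4 and Kcnk13 have all αTC1 arrays above all βTC3 arrays, while Kcnh1, Kcnmb2 and Kcnip1 have all of them below; heights of different genes are not comparable.

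Deacetylase inhibitors moved a subset of the family in both directions. The hydroxamic acids raised 4 members and lowered 9 in αTC1 at 6 h, where 26.6% of all genes rose and 24.3% fell. At 24 h in αTC1 5 members rose and 13 fell, against 26.1% and 24.3% of all genes. In βTC3 6 rose and 9 fell at 6 h (26.2% and 24% of all genes), and 7 rose and 6 fell at 24 h (22.5% and 20.7%). The median absolute change of the members was 0.05 log2 units against 0.15 over all genes in αTC1 at 6 h and 0.08 against 0.16 at 24 h. In βTC3 it was 0.06 against 0.15 at 6 h and 0.05 against 0.12 at 24 h. Members that passed with a change of 2-fold or more numbered 0 and 1 in αTC1 at 6 and 24 h (5.8% and 5.88% of all genes) and 2 at each time in βTC3 (6.17% and 2.48%).

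The anilides moved fewer members at 6 h, with 5 up and 1 down in αTC1 (12.7% and 13.9% of all genes) and 4 up and 3 down in βTC3 (12.9% and 16.5%). At 24 h they raised 5 and lowered 7 in αTC1, against 21.2% and 22.5% of all genes, and raised 7 and lowered 4 in βTC3, against 22% and 21.7%. Over the 8 class comparisons 31 members passed the test at least once and 28 never did, which is 52.5% of the members against 77.6% of all genes. In all 4 hydroxamic acid comparisons 6 members passed in 1 direction, 10.2% of the members against 19.7% of all genes. Kcnj11, Kcnk1, Kcnip1 and Kcnip3 were lower in both lines at both times, and Kcnab2 and Kcnj10 were higher.

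These counts moved with the scaling and with the batches. Centring each array on its median moved the median gene by -0.13 in αTC1 under the hydroxamic acids at 6 h, and 2 members were then higher and 42 lower there, where 74.8% of all genes passed under centring. Under centring the split of higher against lower members was 3 and 19 under the hydroxamic acids in αTC1 at 24 h (54% of all genes passed). Under the anilides it was 3 and 16 in αTC1 at 24 h (49.7%), 11 and 2 in βTC3 at 6 h (32.4%), and 7 and 11 in βTC3 at 24 h (46.2%). None of the members that passed as reported turned its sign under centring or quantile scaling. Arrays of batches 4 to 6 hold LBH-589, SAHA, scriptaid and 2 of the 3 trichostatin A arrays, and those of batches 7 to 10 hold CRA-024781, ITF-2357, PXD101, pyroxamide and 1 trichostatin A array, so batch and compound cannot be told apart within the class. In batches 4 to 6 alone the hydroxamic acids changed 4 members in αTC1 (23.4% of all genes) and 3 in βTC3 (15.5%) at 24 h, and in batches 7 to 10 alone 15 (51%) and 12 (43.9%), so the share over all genes moved with the count of members. At 6 h the counts were 10 in αTC1 (41.8%) and 15 in βTC3 (42%) in batches 4 to 6, and 11 (42.3%) and 12 (43.3%) in batches 7 to 10.

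Among the 13 inward rectifiers, Kcnj11 fell in 7 of the 8 class comparisons. In αTC1 at 6 h it ranged over 3.21, 3.47 and 3.93 under the hydroxamic acids, against 3.78, 4.23 and 4.62 in DMSO, and 23 of 24 treated arrays lay below every DMSO array. The change was -0.69 ± 0.08 (SE; limma adjusted p 1.05e-12), and within the batch sets -0.68 and -0.69. At 24 h in αTC1 it ranged over 3.04, 3.58 and 4.34 under the hydroxamic acids and over 3.16, 3.46 and 3.76 under the anilides, against 3.97, 4.32 and 4.91 in DMSO. All 8 anilide arrays and 19 of 22 hydroxamic acid arrays lay below DMSO, with changes of -0.92 ± 0.10 and -0.72 ± 0.07. Within batches 4 to 6 and 7 to 10 the hydroxamic acid value was -0.49 and -0.90.

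Kcnj11 in βTC3 followed the same direction. At 6 h it ranged over 3.07, 3.32 and 3.81 under the hydroxamic acids and over 3.52, 3.79 and 4.08 under the anilides, against 3.67, 4.17 and 4.63 in DMSO. The hydroxamic acid change was -0.71 ± 0.08, with 23 of 24 arrays below DMSO. The anilide change was -0.32 ± 0.10 (limma adjusted p 0.015), with 1 of 9 arrays below DMSO, and it lost the call without replicate 1 (-0.32, adjusted p 0.0529) or replicate 3 (-0.33, adjusted p 0.0647). At 24 h the changes in βTC3 were -0.49 ± 0.07 under the hydroxamic acids and -0.62 ± 0.10 under the anilides. The hydroxamic acid value was -0.27 in batches 4 to 6, where it did not pass (adjusted p 0.0866), and -0.65 in batches 7 to 10.

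Abcc8, the sulphonylurea receptor that forms the ATP-sensitive channel with Kcnj11 and is no member of the Kcn genes, fell under the hydroxamic acids, with changes of -0.57 in αTC1 and -0.42 in βTC3 at 24 h. Under the anilides it rose, by 0.52 in αTC1 and 0.48 in βTC3 at 24 h. The subunits of this channel thus moved the same way under the hydroxamic acids and in opposite directions under the anilides at 24 h.

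Kcnj10, which carries the glial Kir4.1 current, was low in DMSO and rose under the hydroxamic acids. In αTC1 at 24 h it ranged over 3.04, 3.62 and 4.25 under the hydroxamic acids, against 2.90, 3.12 and 3.35 in DMSO, with 16 of 22 arrays above DMSO and a change of 0.47 ± 0.06 (limma adjusted p 1.88e-09). Its arrays in βTC3 at 6 h ranged over 3.28, 3.87 and 4.33 against 3.17, 3.38 and 3.69 in DMSO, with 20 of 24 arrays above and a change of 0.46 ± 0.07. The call of Kcnj10 in αTC1 at 6 h was lost without replicate 2 (0.16, limma adjusted p 0.053). The rise of Kcnj10 was larger in batches 7 to 10. The values in batches 4 to 6 and in batches 7 to 10 were -0.01 and 0.36 in αTC1 at 6 h, 0.25 and 0.71 in αTC1 at 24 h, 0.22 and 0.71 in βTC3 at 6 h, and -0.01 and 0.68 in βTC3 at 24 h. Under the anilides at 24 h Kcnj10 rose by 0.27 in αTC1 (0.17 and no longer called without replicate 2) and by 0.54 ± 0.09 in βTC3, where 7 of 9 arrays lay above DMSO.

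The remaining inward rectifiers moved little. In αTC1 the G-protein-gated genes Kcnj5 and Kcnj9 changed by -0.16 and -0.13 under the hydroxamic acids at 24 h and Kcnj15 by -0.14 at 6 h. Kcnj4 rose by 0.23 in βTC3 under the anilides at 24 h, a call that was lost without replicate 1 (0.16, limma adjusted p 0.112). In batches 7 to 10, which hold 1 MS-275 array of the anilides there, the Kcnj4 value was -0.09. Kcnj6 did not pass under the hydroxamic acids at 24 h, with 0.08 in αTC1 (adjusted p 0.316) and 0.01 in βTC3. In all, of the 13 inward rectifiers 1 rose and 2 fell in αTC1 at 6 h under the hydroxamic acids (26.6% and 24.3% of all genes). At 24 h 1 rose and 3 fell there (26.1% and 24.3%). In βTC3 1 rose and 1 fell at 6 h (26.2% and 24%) and at 24 h (22.5% and 20.7%).

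Of the 7 tandem-pore genes, none rose and 2 fell in αTC1 at 6 h under the hydroxamic acids (26.6% and 24.3% of all genes). At 24 h none rose and 4 fell there (26.1% and 24.3%). In βTC3 none rose and 2 fell at 6 h (26.2% and 24%), and 1 rose and 1 fell at 24 h (22.5% and 20.7%). Kcnk1 fell most in βTC3. In βTC3 at 6 h it ranged over 4.85, 5.40 and 6.16 under the hydroxamic acids and over 5.06, 5.54 and 6.03 under the anilides, against 6.18, 6.62 and 7.0 in DMSO. Every one of the 24 hydroxamic acid arrays and 9 anilide arrays lay below every DMSO array, with changes of -1.16 ± 0.11 (limma adjusted p 5.12e-15) and -1.01 ± 0.14. Within the batch sets the hydroxamic acid value was -1.0 and -1.33.

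At 24 h in βTC3 Kcnk1 spread more widely, over 3.81, 5.97 and 6.76 under the hydroxamic acids and over 5.68, 5.98 and 6.45 under the anilides, against 6.13, 6.75 and 7.25 in DMSO. The changes were -1.04 ± 0.09 and -0.62 ± 0.12, and within batches 4 to 6 and 7 to 10 the hydroxamic acid value was -0.36 and -1.46. In αTC1 the change was -0.93 ± 0.10 at 6 h and -0.38 ± 0.10 at 24 h under the hydroxamic acids. That 24 h value was -0.06 (adjusted p 0.789) in batches 4 to 6 and -0.58 in batches 7 to 10. Under the anilides Kcnk1 fell by 0.52 ± 0.14 in αTC1 at 6 h, and at 24 h its arrays ranged over 6.69, 7.09 and 7.52 against 6.45, 6.78 and 7.21 in DMSO and did not pass. A second probe set of Kcnk1 gave -0.57 in αTC1 and -0.74 in βTC3 under the hydroxamic acids at 24 h.

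Kcnk13 fell in αTC1, the line in which it was brighter. It ranged over 3.50, 4.28 and 4.77 under the hydroxamic acids at 6 h, against 4.74, 5.14 and 5.53 in DMSO, with 21 of 24 arrays below DMSO and a change of -0.88 ± 0.08 (limma adjusted p 6.74e-16). At 24 h the change was -0.81 ± 0.10 under the hydroxamic acids and -0.72 ± 0.14 under the anilides. The hydroxamic acid value at 24 h was -0.41 in batches 4 to 6, which did not pass (adjusted p 0.0864), and -1.15 in batches 7 to 10.

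Kcnk3 moved differently by class, time and line. In αTC1 at 6 h under the anilides it ranged over 6.73, 7.14 and 7.76, against 5.84, 6.44 and 7.26 in DMSO, and rose by 0.58 ± 0.13 (limma adjusted p 0.000199) with 4 of 9 arrays above DMSO. At 24 h under the hydroxamic acids it ranged over 4.87, 5.90 and 7.31 in αTC1, against 5.92, 6.4 and 6.78 in DMSO, and fell by 0.45 ± 0.09. Of its 22 arrays 11 lay below and 1 above DMSO. The fall was -0.02 in batches 4 to 6 (adjusted p 0.96) and -0.82 in batches 7 to 10. In βTC3 it rose by 0.22 ± 0.08 at 24 h, a call that was lost without replicate 2 (0.14, adjusted p 0.193) and that its other probe sets, at 0.00 and 0.01, did not show. Kcnk10, a mechanosensitive channel, changed by -0.15 in αTC1 at 24 h and by -0.28 in βTC3 at 6 h under the hydroxamic acids.

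Among the 18 voltage-gated subunits the hydroxamic acids raised 0 and lowered 2 in αTC1 at 6 h (26.6% and 24.3% of all genes). At 24 h they raised 1 and lowered 3 there (26.1% and 24.3%), and in βTC3 at 6 h 1 and 2 (26.2% and 24%). In βTC3 at 24 h limma called 0 up and 0 down (22.5% and 20.7%). At an unadjusted p under 0.05, for which no count of all genes is given here, there were 2. Kcnh2, which repolarises islet cells and cardiomyocytes, had the widest change. In αTC1 at 24 h it ranged over 4.17, 5.03 and 5.95 under the hydroxamic acids and over 4.69, 5.31 and 5.75 under the anilides, against 5.43, 5.84 and 6.48 in DMSO. Below all DMSO arrays lay 18 of 22 hydroxamic acid arrays and 5 of 8 anilide arrays, with changes of -0.86 ± 0.11 (limma adjusted p 3.04e-10) and -0.62 ± 0.15. The hydroxamic acid value was -0.55 in batches 4 to 6 and -1.14 in batches 7 to 10. Kcnh2 in βTC3 at 6 h ranged over 5.16, 5.53 and 6.30 against 4.75, 5.22 and 5.67 in DMSO and rose by 0.34 ± 0.10, with 0.56 in batches 4 to 6 and 0.14 (adjusted p 0.524) in batches 7 to 10.

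Kcnc4 in αTC1 at 6 h moved in opposite directions under the classes. It ranged over 3.79, 4.47 and 5.65 under the hydroxamic acids and over 5.42, 5.77 and 6.56 under the anilides, against 4.37, 5.12 and 6.25 in DMSO. The change was -0.48 ± 0.13 (limma adjusted p 0.000809) under the hydroxamic acids and 0.66 ± 0.17 under the anilides, and the anilide call was lost without replicate 3 (0.55, adjusted p 0.0576). The Kv4 pore Kcnd1, in βTC3 at 6 h, fell by 0.46 ± 0.08 under the hydroxamic acids, with 17 of 24 arrays below DMSO. Kcnh1 changed there by -0.39 ± 0.09 under the hydroxamic acids and by -0.46 ± 0.12 under the anilides, with 16 of 24 and 8 of 9 arrays below DMSO. The hydroxamic acid value of Kcnh1 was -0.54 in batches 4 to 6. In batches 7 to 10 it was -0.31 and did not pass (limma adjusted p 0.099). Smaller changes passed for Kcna5 (-0.20 and -0.21 in αTC1 at 6 and 24 h under the hydroxamic acids), Kcna4 (-0.13 in αTC1 at 24 h) and Kcns1, a silent modulatory subunit (0.18 there). The Kcna5 call at 6 h was lost without replicate 1 (-0.17, adjusted p 0.0642) and in batches 4 to 6 (-0.11, adjusted p 0.34). That of Kcns1 was lost without replicate 1 (0.09, adjusted p 0.248) and in either batch set (adjusted p 0.21 and 0.0535). Kcnq1 did not pass at 24 h under the hydroxamic acids, at 0.03 in either line.

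The 6 members grouped as calcium- or sodium-activated include the small-conductance channels, and Kcnn1 had the largest class change among them. In αTC1 at 6 h it ranged over 3.82, 4.38 and 5.14 under the hydroxamic acids, against 3.28, 3.55 and 3.69 in DMSO, and all 24 treated arrays lay above every DMSO array. The change was 0.89 ± 0.09 (limma adjusted p 1.28e-14), with 0.90 and 0.98 within the batch sets. At 24 h in αTC1 it ranged over 3.41, 3.95 and 4.57, against 3.39, 3.72 and 4.34 in DMSO, and did not pass. In βTC3 it rose by 0.55 ± 0.08 at 6 h and 0.36 ± 0.06 at 24 h, and the 24 h value was 0.08 in batches 4 to 6 and 0.55 in batches 7 to 10. Under the anilides Kcnn1 rose in βTC3 at 24 h, where it ranged over 3.56, 3.79 and 4.30 against 2.90, 3.14 and 3.58 in DMSO, by 0.61 ± 0.08.

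Other calcium-activated genes followed in single comparisons. Kcnn2 rose by 0.23 in αTC1 at 6 h under the hydroxamic acids and by 0.34 at 24 h under the anilides, and Kcnn3 rose by 0.30 in βTC3 at 6 h under the hydroxamic acids. Kcnma1 ranged over 3.42, 3.78 and 4.55 under the hydroxamic acids in βTC3 at 24 h, against 3.63, 4.14 and 4.68 in DMSO, and fell by 0.28 ± 0.07, with -0.35 from its other probe set. The Kcnma1 value was -0.18 in batches 4 to 6 (adjusted p 0.272) and -0.34 in batches 7 to 10. In αTC1 its change there was -0.02 and did not pass.

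Kcnu1, a pH-gated channel best known from sperm, moved in both directions. Its arrays in βTC3 at 6 h ranged over 3.52, 4.32 and 4.79 under the hydroxamic acids, against 4.46, 4.66 and 5.09 in DMSO, and fell by 0.42 ± 0.09 (limma adjusted p 2.07e-05). By 24 h it ranged over 4.74, 5.11 and 5.69 against 4.48, 4.85 and 5.09 and rose by 0.30 ± 0.07, with 14 of 24 arrays above DMSO. In αTC1 it fell by 0.23 ± 0.06 at 24 h under the hydroxamic acids and rose by 0.57 ± 0.09 at 6 h under the anilides, with 8 of 9 arrays above DMSO.

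At 24 h under the hydroxamic acids the largest falls of the family were those of accessory subunits, Kcnip3 in αTC1 and Kcnmb2 in βTC3. Of the 15, the hydroxamic acids raised 1 and lowered 3 in αTC1 at 6 h (26.6% and 24.3% of all genes). At 24 h they raised 3 and lowered 2 there (26.1% and 24.3%). In βTC3 they raised 2 and lowered 3 at 6 h (26.2% and 24%) and 3 and 3 at 24 h (22.5% and 20.7%). The anilides raised 2 and lowered none in αTC1 at 6 h (12.7% and 13.9%) and 3 and 1 at 24 h (21.2% and 22.5%). In βTC3 they raised 2 and lowered none at 6 h (12.9% and 16.5%) and 3 and 2 at 24 h (22% and 21.7%). Kcnab2 and Kcnab3 encode cytoplasmic beta subunits of voltage-gated channels with an aldo-keto reductase fold. Kcnab2 in αTC1 at 6 h ranged over 4.51, 4.90 and 5.30 under the hydroxamic acids, against 3.92, 4.21 and 4.45 in DMSO, with all 24 arrays above DMSO and a change of 0.66 ± 0.06 (limma adjusted p 8.12e-16). At 24 h it rose by 0.58 ± 0.07 in either line. The values in batches 4 to 6 were 0.28 in αTC1 and 0.13 in βTC3 at 24 h, neither of which passed, against 0.89 and 0.98 in batches 7 to 10.

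Under the anilides Kcnab2 rose at 24 h, by 0.63 ± 0.10 in αTC1 and by 0.68 ± 0.09 in βTC3, where it ranged over 4.42, 4.50 and 5.24 against 3.72, 3.98 and 4.29 in DMSO and all 9 arrays lay above. Kcnab3 rose further under the anilides in βTC3. Kcnab3 at 24 h ranged over 4.4, 4.64 and 5.11 under the anilides and over 3.56, 3.79 and 4.22 under the hydroxamic acids, against 3.28, 3.57 and 3.98 in DMSO. All 9 anilide arrays lay above every DMSO and every hydroxamic acid array, with changes of 1.08 ± 0.10 (limma adjusted p 3.37e-16) and 0.23. The hydroxamic acid value was 0.17 in batches 4 to 6, which did not pass (limma adjusted p 0.31), and 0.28 in batches 7 to 10. In αTC1 at 24 h the changes of Kcnab3 were 0.65 ± 0.09 and 0.33 ± 0.06, and all 8 anilide arrays lay above DMSO.

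Kcnip3 fell most of all members in αTC1 at 24 h under the hydroxamic acids. It ranged over 4.45, 5.37 and 7.31 under the hydroxamic acids and over 6.24, 6.72 and 6.99 under the anilides, against 6.58, 6.92 and 7.60 in DMSO. Below DMSO lay 18 of 22 hydroxamic acid arrays and 2 of 8 anilide arrays. The hydroxamic acid change was -1.33 ± 0.09 (limma adjusted p 2.64e-22), with -0.70 in batches 4 to 6 and -2.0 in batches 7 to 10, and a second probe set gave -1.61. The anilide change was -0.43 ± 0.12 and lost the call without replicate 2 (-0.32, adjusted p 0.137). At 6 h Kcnip3 fell by 0.67 ± 0.07 under the hydroxamic acids and rose by 0.59 ± 0.10 under the anilides, where it ranged over 6.99, 7.42 and 7.76 against 5.89, 6.65 and 7.35 in DMSO. In βTC3 it fell by 0.32 ± 0.07 at 24 h, with overlapping arrays (3.87, 4.80 and 6.09 under the hydroxamic acids, against 4.25, 5.16 and 6.24 in DMSO). That value was -0.12 in batches 4 to 6 (adjusted p 0.497) and -0.48 in batches 7 to 10, and the 6 h call of Kcnip3 in βTC3 was lost in batches 7 to 10 (-0.27, adjusted p 0.0751).

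Kcnmb2 and Kcnip1 fell in βTC3, the line in which they were bright. Kcnmb2 at 6 h ranged over 4.67, 5.85 and 6.38 under the hydroxamic acids, against 6.35, 6.73 and 7.32 in DMSO, with 23 of 24 arrays below and a change of -1.07 ± 0.11. At 24 h it ranged over 4.15, 6.08 and 6.99 under the hydroxamic acids and over 5.12, 5.61 and 6.50 under the anilides, against 6.46, 6.77 and 7.42 in DMSO. The changes were -1.20 ± 0.12 (limma adjusted p 3.16e-14) and -1.11 ± 0.15, and the hydroxamic acid value was -0.36 in batches 4 to 6 and -1.86 in batches 7 to 10. In αTC1, where it was dim, Kcnmb2 rose by 0.70 ± 0.11 under the anilides at 6 h.

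Kcnip1 in βTC3 ranged over 5.26, 6.09 and 6.57 under the hydroxamic acids at 6 h, against 5.97, 6.74 and 7.19 in DMSO, and fell by 0.75 ± 0.10. At 24 h it ranged over 4.17, 6.34 and 7.31 against 5.99, 6.64 and 7.54 and fell by 0.84 ± 0.11 (limma adjusted p 2.28e-10), with 10 of 24 arrays below DMSO. In batches 4 to 6 the 24 h value was 0.07 (adjusted p 0.752) and in batches 7 to 10 it was -1.47. A probe set of Kcnip1 besides the one taken gave -0.86 at 24 h, and the dim ones -0.05 and 0.04. In αTC1, at the low end of the scale, the changes were -0.18 at 6 h and -0.21 at 24 h. The 6 h call of Kcnip1 there was lost without replicate 1 (-0.11, adjusted p 0.289) and in batches 7 to 10 (-0.09, adjusted p 0.565), and the 24 h call in batches 4 to 6 (-0.22, adjusted p 0.208). Kcnmb1, another auxiliary subunit of the large-conductance channel, rose by 0.42 ± 0.08 in βTC3 at 6 h under the anilides, and the single-span subunits Kcne2 and Kcne4 changed by 0.27 or less in size under either class.

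**Figure D2:**
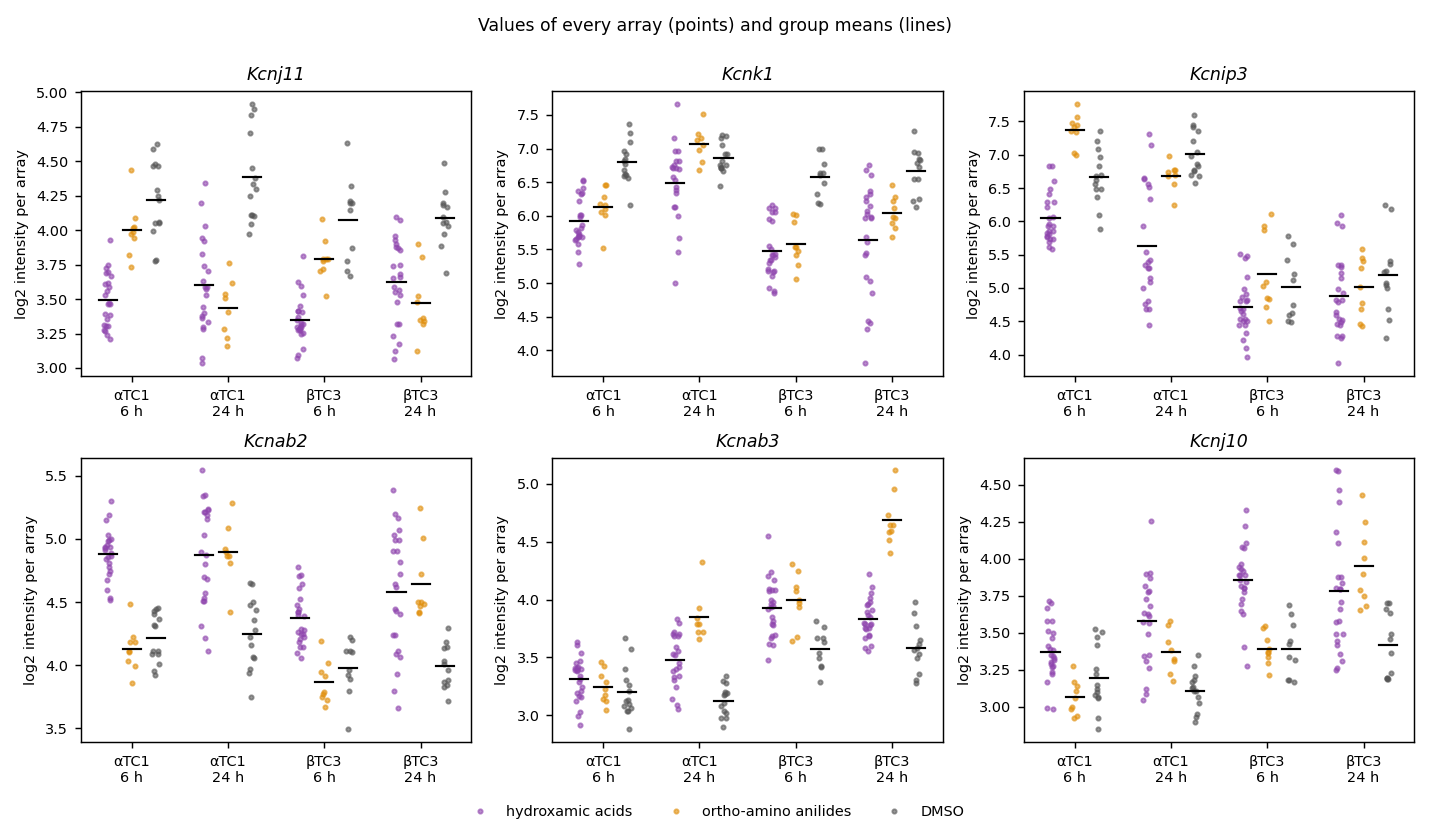
Log2 intensity on each array under the hydroxamic acids, the ortho-amino anilides and DMSO for Kcnj11, Kcnk1, Kcnip3, Kcnab2, Kcnab3 and Kcnj10, by line and time, with each point 1 array and each line the group mean. In βTC3 at 6 h all hydroxamic acid and anilide points of Kcnk1 lie below DMSO, and in βTC3 at 24 h all anilide points of Kcnab3 lie above it.

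Promoters are shown for members that moved one way in all 4 hydroxamic acid comparisons, a set picked from these same calls. Of these 6 members 5 had an entry in the RefSeq promoter table (GRCm38.p6), while Kcnj11 is named only. The 150 bases before the most upstream start of each gene are shown 5′ to 3′ on the gene's strand, to set the genes that rose beside those that fell. Capitals mark GC boxes, searched as GGGCGG or CCGCCC, which cover both strands. Of the 59 members, 48 had entries.
Kcnab2: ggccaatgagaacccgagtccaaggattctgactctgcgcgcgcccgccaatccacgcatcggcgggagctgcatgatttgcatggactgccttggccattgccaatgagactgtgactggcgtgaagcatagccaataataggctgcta
Kcnj10: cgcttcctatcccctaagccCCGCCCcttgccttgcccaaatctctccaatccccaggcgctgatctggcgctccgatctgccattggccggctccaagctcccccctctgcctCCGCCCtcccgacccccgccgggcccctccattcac
Kcnip1: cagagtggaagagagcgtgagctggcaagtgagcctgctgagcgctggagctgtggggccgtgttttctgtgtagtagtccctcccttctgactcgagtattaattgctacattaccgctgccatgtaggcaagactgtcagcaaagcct
Kcnip3: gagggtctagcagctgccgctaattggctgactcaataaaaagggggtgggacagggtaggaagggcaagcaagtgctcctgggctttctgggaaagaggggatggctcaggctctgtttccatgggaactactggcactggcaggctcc
Kcnk1: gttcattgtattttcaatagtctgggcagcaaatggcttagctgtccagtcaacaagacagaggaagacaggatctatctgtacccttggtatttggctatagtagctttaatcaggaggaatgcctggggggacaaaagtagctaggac
The windows lie at chr4:152477550-152477699 on the minus strand for Kcnab2, chr1:172341060-172341209 on the plus strand for Kcnj10, chr11:33993194-33993343 on the minus strand for Kcnip1, chr2:127522095-127522244 on the minus strand for Kcnip3 and chr8:125994952-125995101 on the plus strand for Kcnk1. Of these Kcnj10 alone held GC boxes, 2 of them. The CpG count was 9 for Kcnab2 and 10 for Kcnj10, which rose, and 5, 1 and 0 for Kcnip1, Kcnip3 and Kcnk1, which fell, in a comparison of 5 windows that carries no test. Among all 32851 promoters listed, 28.6% held a GC box, and among the members 26 of 63 entries did (41.3%). Kcnab2, Kcnip1 and Kcnip3 have 3 starts each in the table, and the data do not say which one these cells use.

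The lines differed in how far a class moved several members. Tested as an interaction, the hydroxamic acid effect in αTC1 differed from that in βTC3 for 11 members at 6 h, against 30% of all genes, and for 11 at 24 h, against 33.9%. The anilide effect differed for 6 members at 6 h (11.7% of all genes) and 9 at 24 h (28.6%). Some of these genes were bright in 1 line and near the low end of the scale in the other. Kcnmb2 was changed by the hydroxamic acids by -0.10 in αTC1 and -1.20 in βTC3 at 24 h, a difference of 1.09 ± 0.16 (limma adjusted p 4.46e-09), and Kcnk13 by -0.81 in αTC1 and 0.02 in βTC3, a difference of -0.83 ± 0.12.

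Some differences between the lines concerned genes measured above the low end in both, besides Kcnk3, which was dim in βTC3. Kcnip3 fell further in αTC1 under the hydroxamic acids at 24 h, with a difference of -0.93 ± 0.16 (limma adjusted p 7.8e-07), and so did Kcnh2, with -0.63. Kcnk1 fell less in αTC1 under the hydroxamic acids at 24 h, with a difference of 0.63. Under the anilides at 24 h Kcnk1 fell in βTC3 but not in αTC1, with a difference of 0.84. Kcnk3 and Kcnu1 passed in opposite directions at 24 h under the hydroxamic acids. Kcnk3 changed by -0.45 in αTC1 and 0.22 in βTC3 (difference -0.65 ± 0.13), and Kcnu1 by -0.23 and 0.30 (difference -0.52, adjusted p 1.69e-05). The other probe sets of Kcnk3 did not show its rise in βTC3. Centring on the array median shifted the median gene by -0.12 in the 6 h comparison of the hydroxamic acids, and the split of positive against negative differences was then 4 and 17, against 6 and 5 as reported. The 24 h split was 3 and 14, against 4 and 7. Under centring 38.3% of all genes passed at 6 h and 35.5% at 24 h.

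**Figure D3:**
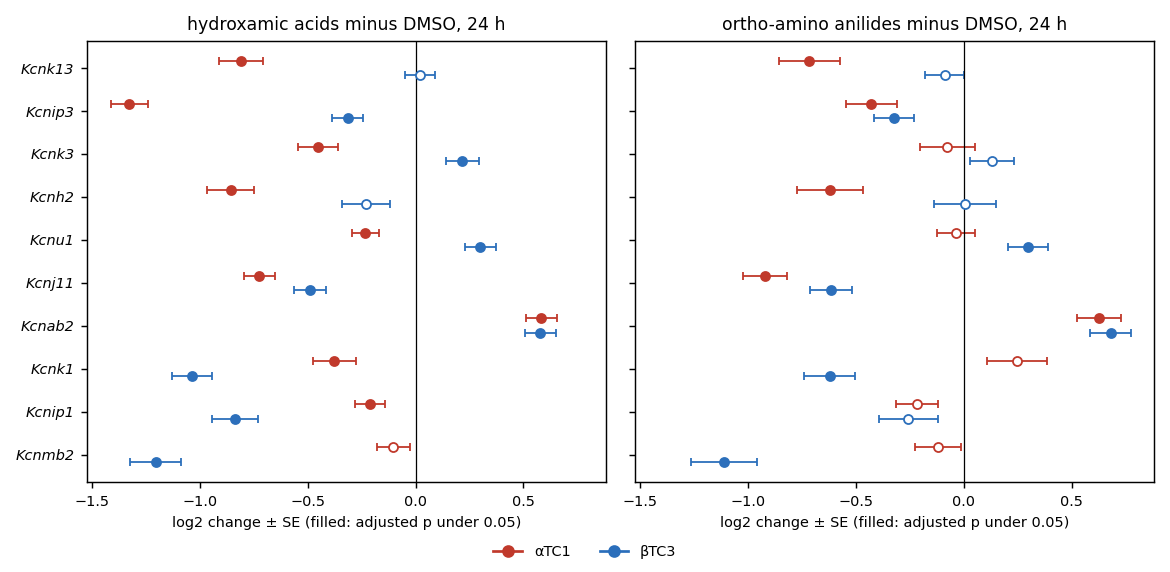
Log2 change against DMSO at 24 h, with its SE, for 10 potassium channel genes in αTC1 and βTC3 under the hydroxamic acids (left) and the ortho-amino anilides (right). Filled circles passed at an adjusted p under 0.05; Kcnk3 and Kcnu1 have filled circles on opposite sides of 0 under the hydroxamic acids.

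The effect also differed between the times. The hydroxamic acid effect at 24 h differed from that at 6 h for 8 members in αTC1 (29.8% of all genes) and 5 in βTC3 (33.6%), and the anilide effect for 13 in αTC1 (35.7%) and 10 in βTC3 (29.6%). Kcnip3 in αTC1 turned under the anilides, with 0.59 at 6 h and -0.43 at 24 h, a difference of -1.08 ± 0.14 (limma adjusted p 5.1e-11). Kcnu1 in βTC3 turned under the hydroxamic acids, with -0.42 at 6 h and 0.30 at 24 h, a difference of 0.72 (adjusted p 3.61e-08). For Kcnn1 in αTC1 the hydroxamic acid effect at 24 h minus that at 6 h was -0.70. Under centring the split of positive against negative differences was 8 and 4 for the hydroxamic acids in αTC1, against 4 and 4 as reported. For the anilides it was 4 and 11 in αTC1, against 5 and 8, and 4 and 13 in βTC3, against 5 and 5. Of all genes 32.6% passed under centring for the hydroxamic acids in αTC1, and 38.9% and 35.6% for the anilides in αTC1 and βTC3.

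The anilide effect was higher at 24 h than at 6 h for Kcnab2, Kcnab3 and Kcnj10 in both lines and for Kcnn1 in βTC3. In βTC3 the effect at 24 h exceeded that at 6 h by 0.77 for Kcnab2 (limma adjusted p 1.12e-07), 0.66 for Kcnab3, 0.55 for Kcnj10 and 0.53 for Kcnn1. In αTC1 the excess was 0.74 for Kcnab2, 0.69 for Kcnab3 and 0.41 for Kcnj10. The anilide effect was lower at 24 h for Kcnmb2 (-0.80 ± 0.14 in αTC1 and -1.51 ± 0.21 in βTC3) and Kcnj11 (-0.71 in αTC1 and -0.35 in βTC3). Kcnk1 ran the other way in αTC1, where its change at 24 h stood 0.90 above that at 6 h.

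**Figure D4:**
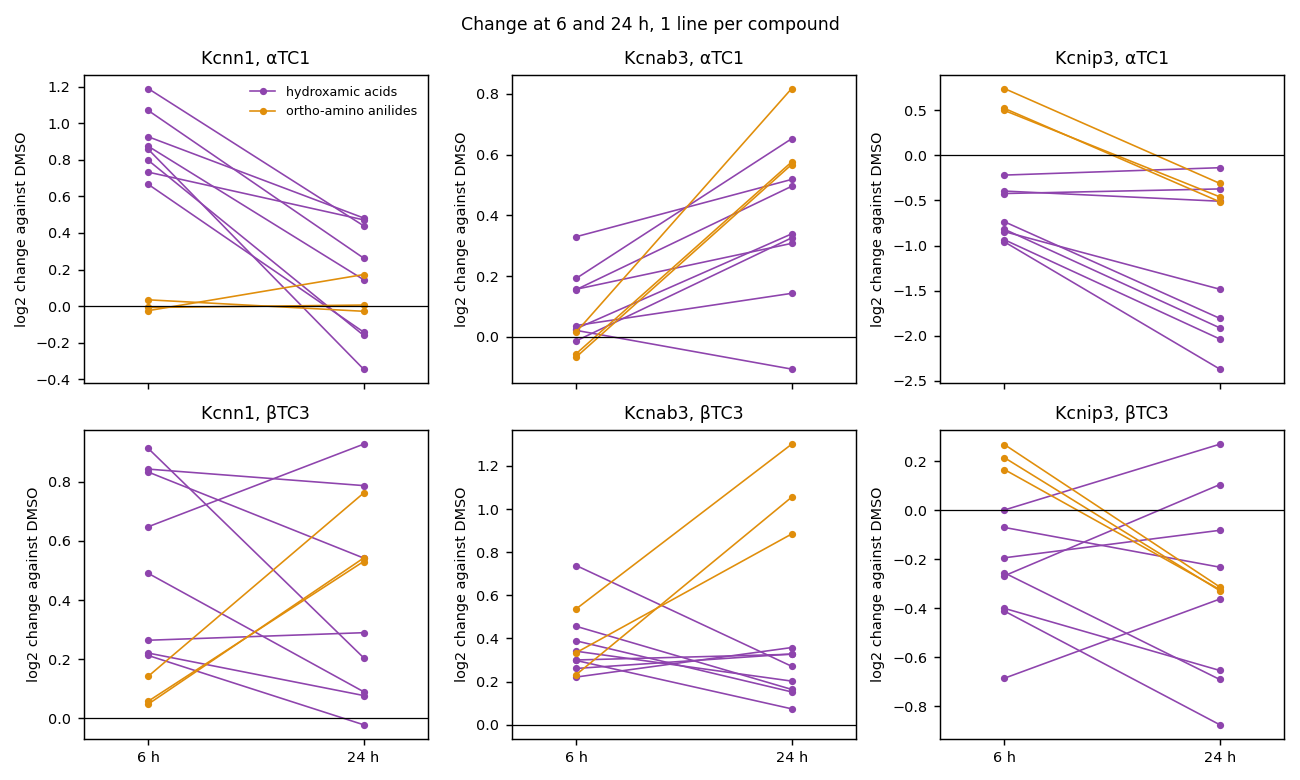
Log2 change against DMSO of the same line at 6 h and at 24 h for Kcnn1, Kcnab3 and Kcnip3, with 1 line per compound coloured by its class and a y scale of its own in each panel. The hydroxamic acid lines of Kcnn1 in αTC1 lie lower at 24 h than at 6 h, and the anilide lines of Kcnip3 in αTC1 cross 0.

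Single compounds showed how uneven a class was. Doses differed, so their values stand side by side with no test between them. Kcnj11 was lower than DMSO under 17 and 16 of the 29 compounds in αTC1 at 6 and 24 h and under 17 and 14 in βTC3, and Kcnk1 under 18 and 9 in αTC1 and 19 and 16 in βTC3. Kcnab2 was higher under 16 at either time in αTC1 and under 13 and 14 in βTC3. Kcnn1 was higher under 15 compounds in αTC1 at 6 h and under 4 at 24 h.

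ITF-2357 at 24 h changed 14 members in αTC1 (6 up, 8 down; 46.2% of all genes) and 11 in βTC3 (4 up, 7 down; 40.4%). Its Kcnip3 arrays in αTC1 read 4.45, 4.75 and 4.68, all below the lowest DMSO array at 6.58, and the change was -2.37 ± 0.16 (limma adjusted p 7e-21). Trichostatin A, pyroxamide, PXD101 and CRA-024781 changed Kcnip3 there by -2.04, -1.91, -1.81 and -1.48. In βTC3 the Kcnip1 arrays of ITF-2357 read 4.18, 4.84 and 4.67, below the lowest DMSO array at 5.99, a change of -2.85 ± 0.22. Its Kcnmb2 arrays read 4.23, 4.66 and 4.87, a change of -2.70 ± 0.25. Readings carry no batch correction and changes do, and these readings lay nearer to the DMSO median than the changes say. PXD101 and CRA-024781 changed Kcnip1 by -2.13 and -1.74 and Kcnmb2 by -2.35 and -2.14.

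Scriptaid changed 7 members in αTC1 at 6 h (2 up, 5 down; 31.3% of all genes) and 9 in βTC3 (2 up, 7 down; 30.4%). At 24 h limma called 0 members in αTC1 (0.423% of all genes) and 0 in βTC3 (0.0508%). At an unadjusted p under 0.05, for which no count of all genes is given here, there were 2 and 5. The difference between the times was not tested. Its largest changes at 6 h were -0.83 for Kcnk13 in αTC1 and -0.96 for Kcnmb2 in βTC3.

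The cyclic tetrapeptide apicidin changed 14 members in αTC1 at 24 h (7 up, 7 down; 37.7% of all genes) and 10 in βTC3 (5 up, 5 down; 36.1%). Its Kcnk1 arrays in βTC3 read 4.56, 3.94 and 3.99, all below the lowest DMSO array at 6.13, and the change was -2.52 ± 0.17 (limma adjusted p 1.67e-20). PXD101 gave 3.81, 4.44 and 4.32 there, a change of the same size. Apicidin also raised Kcnc4 in αTC1, by 0.98 ± 0.30 at 24 h, as HC-toxin did by 0.86 ± 0.29.

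For BRD5298 the calls came at 24 h, in a pair of times whose difference was not tested. At 6 h limma called 0 members in αTC1 (2.26% of all genes) and 0 in βTC3 (0.652%). At an unadjusted p under 0.05, for which no count of all genes is given here, there were 7 and 3 for BRD5298. By 24 h it changed 12 members in αTC1 (5 up, 7 down; 32.4%) and 9 in βTC3 (3 up, 6 down; 26%). Its Kcnk1 arrays at 24 h read 5.03, 5.81 and 6.13 in αTC1, a change of -1.32 ± 0.19, and 4.58, 4.28 and 4.82 in βTC3, a change of -1.99 ± 0.18. All of them lay below the DMSO arrays of their line. BRD6929 changed Kcnk1 by -1.08 and -1.80 in αTC1 and βTC3 at 24 h and BRD9773 by -0.94 in βTC3.

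Among compounds that are no deacetylase inhibitors, chaetocin moved the most members. It changed 11 in αTC1 at 6 h (7 up, 4 down; 32.7% of all genes) and 19 at 24 h (14 up, 5 down; 47.9%). In βTC3 it changed 6 at 6 h (4 up, 2 down; 23.6%) and 4 at 24 h (1 up, 3 down; 30.9%). Kcnu1 rose under chaetocin in both lines at both times. Its αTC1 arrays read 6.16, 6.08 and 5.94 at 6 h, all above the highest DMSO array at 5.30, a change of 1.10 ± 0.13 (limma adjusted p 1.32e-10), and the changes were 0.98 ± 0.15 and 1.01 ± 0.13 in βTC3 at 6 and 24 h. Kcnk3 fell in αTC1 under chaetocin, to 5.25, 4.41, 5.07 and 5.26 at 24 h, all below the lowest DMSO array at 5.92, a change of -1.38 ± 0.16. Kcnk3 was also lower in αTC1 under BIX-01294 at 6 h (-0.69 ± 0.18) and under 5-azadeoxycytidine at 24 h (-0.86 ± 0.17).

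AMI-1, RG-0108 and zebuarine gave 0 member calls by limma in either line at 24 h. Of all genes 0% passed under AMI-1 and 0% under RG-0108 in either line, and under zebuarine 0% in αTC1 and 3.36% in βTC3. At an unadjusted p under 0.05 there were 2 members in αTC1 and 4 in βTC3 under AMI-1, 5 and 7 under RG-0108, and 2 and 6 under zebuarine. No count of all genes is given here at that threshold, so these counts do not set the members apart. BRD8451 in βTC3 at 24 h raised 2 members (2.63% of all genes), Kcnip1 by 0.84 ± 0.20 (limma adjusted p 0.0091) and Kcnip4 by 0.48 ± 0.13.

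**Figure D5:**
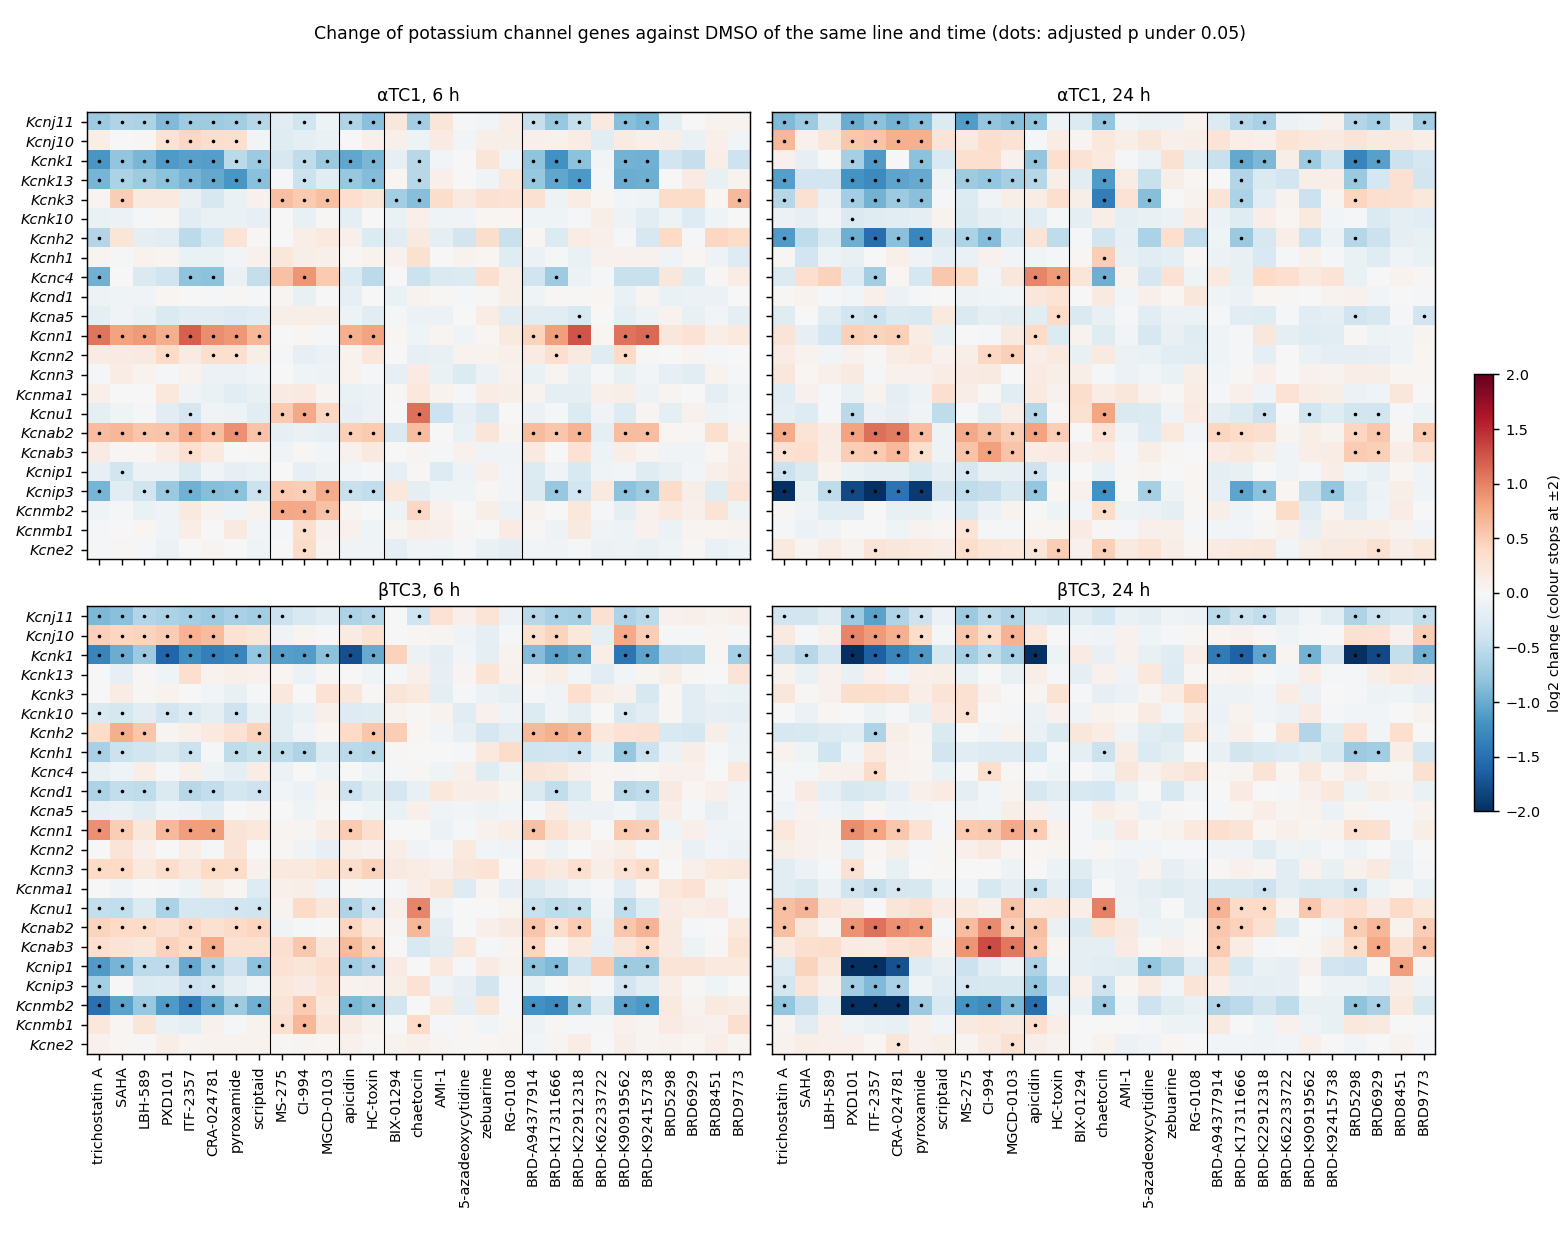
Log2 change against DMSO of the same line and time for 23 potassium channel genes (rows) under 29 compounds (columns), with a dot where the adjusted p was under 0.05 and colours that stop at ±2. Kcnj11 is blue under most deacetylase inhibitors in both lines, Kcnk1 in βTC3 and at 6 h in αTC1, Kcnk13 in αTC1, and Kcnmb2 in βTC3. The columns of AMI-1, zebuarine and RG-0108 carry no dots.

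Only ITF-2357, pyroxamide and CI-994 among the deacetylase inhibitors of known class were given at the same dose, 10 µM. ITF-2357 and pyroxamide are hydroxamic acids and CI-994 is an ortho-amino anilide, so the pairs cross the class or stay within it. The 3 pairs were tested with p-values adjusted over the genes of all pairs of a line and time together. ITF-2357 and pyroxamide lie in batches 7 to 10 and CI-994 in batches 4 to 6, so the differences between classes rest on the batch term, which DMSO and other compounds estimate.

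In αTC1 at 24 h ITF-2357 minus CI-994 changed 4 members (1 up, 3 down; 19.5% of all genes), pyroxamide minus CI-994 5 (0 up, 5 down; 14.7%) and ITF-2357 minus pyroxamide 1 (1 up; 4.82%). Kcnip3 read 4.45, 4.75 and 4.68 under ITF-2357 and 5.39, 5.30 and 4.69 under pyroxamide, against 6.74 and 6.69 under CI-994. The difference was -1.91 ± 0.24 for ITF-2357 (limma adjusted p 7.65e-09) and -1.45 ± 0.24 for pyroxamide. Between the hydroxamic acids it was -0.46, which did not pass (adjusted p 0.153). Kcnk1 read 5.00, 5.47 and 6.76 under ITF-2357 against 7.22 and 7.05 under CI-994, a difference of -1.48 ± 0.28, and pyroxamide minus CI-994 was -1.16 ± 0.28. Kcnk3 differed by -0.87 and -0.77 in these pairs. Without replicate 2 the 3 pairs gave 2 calls together, against 10 with it. The share of all genes without that replicate is not given here, so the drop does not set the members apart.

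In βTC3 at 24 h ITF-2357 minus CI-994 changed 6 members (0 up, 6 down; 19.8% of all genes), pyroxamide minus CI-994 3 (1 up, 2 down; 13.7%) and ITF-2357 minus pyroxamide 7 (3 up, 4 down; 16.4%). Kcnab3 separated the classes. It read 3.98, 3.76 and 3.75 under ITF-2357 against 5.11, 4.96 and 4.64 under CI-994, a difference of -1.15 ± 0.19 (limma adjusted p 4.95e-06), and pyroxamide minus CI-994 was -0.97 ± 0.18, while ITF-2357 minus pyroxamide was -0.17 and did not pass. Kcnip1 and Kcnmb2 instead separated the hydroxamic acids from each other. Kcnip1 read 4.18, 4.84 and 4.67 under ITF-2357, against 6.96, 7.0 and 5.76 under pyroxamide, a difference of -2.60 ± 0.26 (limma adjusted p 1.76e-12). Its pyroxamide minus CI-994 difference was -0.02 and did not pass. Readings carry no batch correction and differences do, so they need not match. Kcnmb2 read 4.23, 4.66 and 4.87 under ITF-2357 against 6.71, 6.69 and 5.03 under pyroxamide, a difference of -1.96 ± 0.29. The 3 pairs gave 16 calls together, and 8 without replicate 1 or 11 without replicate 2 or 3. Here too the shares of all genes without a replicate are not given.

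Kcnj11 did not separate the compounds in αTC1. Its differences at 24 h were -0.03 for ITF-2357 minus CI-994 (95% interval -0.43 to 0.38), -0.06 for pyroxamide minus CI-994 (-0.47 to 0.35) and 0.03 for ITF-2357 minus pyroxamide (-0.31 to 0.38). These intervals leave room for differences of up to 0.47 in size. In βTC3 Kcnj11 was lower under ITF-2357, with differences of -0.56 from CI-994 and -0.67 from pyroxamide, and pyroxamide minus CI-994 was 0.12 (-0.26 to 0.49). For Kcnh2 no pair passed at 24 h, with intervals from -1.27 to -0.04 for ITF-2357 minus CI-994 in αTC1 and from -1.22 to -0.13 for ITF-2357 minus pyroxamide in βTC3 before adjustment.

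Other channel genes of excitable endocrine cells, from lists of the earlier work on these data, moved beside the family. A list held 12 subunits of the ATP-sensitive and calcium channels outside the Kcn genes. Of these the hydroxamic acids raised 2 and lowered 4 in αTC1 at 6 h (26.6% and 24.3% of all genes). At 24 h they raised 3 and lowered 4 there (26.1% and 24.3%). In βTC3 they raised 3 and lowered 5 at 6 h (26.2% and 24%) and 2 and 4 at 24 h (22.5% and 20.7%). The anilides raised 4 and lowered 0 in αTC1 at 6 h (12.7% and 13.9%) and 6 and 1 at 24 h (21.2% and 22.5%). In βTC3 they raised 2 and lowered 1 at 6 h (12.9% and 16.5%) and 5 and 3 at 24 h (22% and 21.7%). Cacna1c, the pore of the L-type calcium channel, changed by -1.39 in αTC1 and -1.16 in βTC3 at 24 h under the hydroxamic acids and by -1.46 and -1.44 under the anilides. Cacna1d, the other L-type pore of islet cells, changed by -0.81 in βTC3 under the hydroxamic acids at 24 h. The T-type pore Cacna1h rose by 1.00 in βTC3 under the anilides.

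Of 11 further excitability genes the hydroxamic acids raised 4 and lowered 4 in αTC1 at 24 h (26.1% and 24.3% of all genes). In βTC3 they raised 2 and lowered 2 (22.5% and 20.7%). The anilides raised 2 and lowered 0 in αTC1 (21.2% and 22.5%), and in βTC3 raised 2 and lowered 1 (22% and 21.7%). Atp1b2, a beta subunit of the sodium-potassium pump, rose most, by 2.88 in αTC1 and 1.87 in βTC3 under the hydroxamic acids at 24 h and by 3.98 and 2.99 under the anilides. Of 9 genes of the REST repressor and its partners, which silence neuronal genes in other cells, the hydroxamic acids raised 3 and lowered 4 in αTC1 at 24 h, and raised 2 and lowered 3 in βTC3. The shares of all genes are those given above for the hydroxamic acids. Rest itself rose by 1.11 in βTC3 at 6 h and Rcor3 fell by 1.17 in αTC1 at 6 h.

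Markers of the cells moved under the same compounds, as did many genes. Under the hydroxamic acids 26.6% of all genes rose and 24.3% fell in αTC1 at 6 h, and 26.1% and 24.3% at 24 h. In βTC3 the shares were 26.2% and 24% at 6 h and 22.5% and 20.7% at 24 h. Under the anilides they were 12.7% and 13.9% in αTC1 at 6 h and 21.2% and 22.5% at 24 h. For βTC3 they were 12.9% and 16.5% at 6 h and 22% and 21.7% at 24 h. Of 8 beta-cell markers the hydroxamic acids lowered 4 and raised 0 in αTC1, and lowered 5 and raised 0 in βTC3, at either time. Among these beta-cell markers the anilides gave 1 increase and 2 decreases in αTC1 at 6 h, with 1 increase and 0 decreases in βTC3. By 24 h the anilide counts were 0 increases with 3 decreases in αTC1 and 0 increases with 4 decreases in βTC3. Of 5 alpha-cell markers 3 fell and 0 rose in αTC1 at either time under the hydroxamic acids, and 2 fell in βTC3 at 24 h. Under the anilides 2 rose and 1 fell in αTC1 at 6 h, 2 rose and 2 fell there at 24 h, and in βTC3 1 rose at 6 h and 2 at 24 h. Nkx2-2, a factor of both cell types, changed by -1.35 in αTC1 and -1.75 in βTC3 at 24 h, Pdx1 by -1.06 in βTC3 and Irx1 by -1.23 in αTC1, while Ins2 did not pass in any class comparison. At 24 h the hydroxamic acids raised 1 and lowered 3 of 7 neuronal and glial markers in αTC1, with 2 higher and 2 lower in βTC3. Of 8 acinar and duct markers they raised 2 and lowered 2 in αTC1, with 1 higher and 1 lower in βTC3, and of 6 fibroblast, endothelial and blood markers 2 rose in αTC1 and 1 in βTC3. Of 5 markers of other islet hormone cells they raised 3 and lowered 1 in αTC1 and raised 2 in βTC3. The part of these shifts in the changes of the potassium channel genes was not tested.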

How the data were processed

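Total RNA of treated αTC1 and βTC3 cells was labelled as biotinylated cRNA and hybridised to Affymetrix mouse arrays, per the labels' protocols. The values the authors deposited are 1 intensity for each probe set on each array, on a linear scale (3.96 to 13635.1), summarised with RMA per the submitters' processing notes (version not given in the sources used here). Log2 values of the deposited intensities were taken here, since the plan had assumed log2 values. No detection calls were used, and array medians of 4.36 to 4.73 in log2 units and the number of arrays limit the precision.

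Of 22716 probe sets, 18003 carried 1 symbol in the platform annotation, 287 several and 4426 none. Each line and time was fitted with limma 3.58.1 (R 4.3.3, with version 1.17.8 of data.table) over all its arrays, with the batch as a term and 1 pooled spread. Benjamini-Hochberg adjustment ran over 11807 genes. Differences between lines or times came from joint fits, and tables were made with pandas 2.3.3 and numpy 2.4.6. The fits were tested on simulated data. Named genes were at most 8 rises and 8 falls per class, line or time comparison, at most 3 changed members per compound and 10 islet channel genes fixed by name, of which some were not analysed here. A few further genes that passed were named after their values were seen. The members and lists were chosen with earlier results of these data known. Alternatives were centring, quantile scaling, no batch term, plate as a random block, the arrays of 1 batch set or of the compared groups only, each replicate or compound left out, the mean of probe sets, and dim genes left out.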

Additional observations from a re-analysis of the deposited data

Results flagged for a closer look

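In αTC1 at 24 h, for each of 4 genes, 1 of the 4 chaetocin arrays lay far from the other 3. Replicate 1 read 5.85 for Kcnh2 and 5.55 for Kcnu1, replicate 2 read 3.07 for Kcna4, and replicate 4 read 6.23 for Kcnip3. In βTC3 at 6 h 1 of the 10 DMSO arrays read 4.13 for Kcnk10. These came from 62 tests on 31 members, of which 5 stood out, and chance marks about 1 in 20 such groups.

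The effects of a class differed between the lines, by the test of the difference itself, for several members. Under the hydroxamic acids there were 11 at 6 h (30% of all genes) and 11 at 24 h (33.9%), and under the anilides 6 (11.7%) and 9 (28.6%). Between 24 and 6 h the hydroxamic acid effects differed for 8 members in αTC1 (29.8%) and 5 in βTC3 (33.6%). The anilide effects differed for 13 (35.7%) and 10 (29.6%). Members that passed in opposite directions were Kcnk3 (difference between the lines -0.65) and Kcnu1 (-0.52) at 24 h under the hydroxamic acids, Kcnu1 between 24 and 6 h in βTC3 (0.72) under the hydroxamic acids, and Kcnip3 between 24 and 6 h in αTC1 (-1.08) under the anilides. The Kcnk3 difference rests on batches 7 to 10, since its αTC1 value was -0.02 in batches 4 to 6. Its rise in βTC3, where it was dim, was not shown by its other probe sets.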

How the results depend on the processing

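Counts of members that passed moved by over 1.5 times under these settings, and the cause was not tested where none is given. Several counts stand without the share of all genes under the same setting. Those counts do not set the members apart from other genes. Centring each array on its median gave 44 in αTC1 at 6 h under the hydroxamic acids (74.8% of all genes). Under the anilides it gave 19 in αTC1 at 24 h (49.7%) and 13 and 18 in βTC3 at 6 and 24 h (32.4% and 46.2%). Over the 29 compounds it gave 255 calls in αTC1 at 6 h (149 as reported). The hydroxamic acid difference between lines then gave 21 and 17 at 6 and 24 h (38.3% and 35.5%), and the anilide one 14 at 24 h (30.2%). Centring also gave 17 for the anilide difference between times in βTC3 (35.6%), and 6 over the 10 µM pairs in αTC1 at 24 h (10 as reported). Leaving out genes below the median level keeps 4 members. By that construction it gave 3 and 3 in DMSO between lines at 6 and 24 h, 2, 4, 3 and 3 under the hydroxamic acids (αTC1 then βTC3, 6 h before 24 h), and 3, 2, 1 and 2 under the anilides. In the same order it gave 43, 44, 31 and 30 over the compounds and 5, 6, 1 and 4 over the pairs. For the differences between lines at 6 and 24 h it gave 1 and 4 (hydroxamic acids) and 2 and 2 (anilides), and for those between times in αTC1 and βTC3 4 and 1 in either class. Without a batch term the anilide difference between times in βTC3 gave 6. In batches 4 to 6 alone the hydroxamic acids gave 4 in αTC1 and 3 in βTC3 at 24 h, and in batches 7 to 10, which hold 1 MS-275 array of the anilides, these gave 2 in βTC3 at 24 h. In βTC3 at 6 h the anilides gave 11 with the compared arrays alone and 4 without MS-275. Leaving out 1 replicate number gave 2 to 8 over the pairs in αTC1 at 24 h and 13 to 16 at 6 h, 8 to 11 in βTC3 at 24 h and 9 to 17 at 6 h, and 6 to 10 for the anilide difference between times in βTC3. Replicate numbers do not pair the samples, since 6 of 34 correlations of their deviations exceeded 0.1 (-0.27 to 0.21), and DMSO arrays carry no number, so a replicate block could be fitted to the pairs only. It gave 16 in αTC1 at 6 h and 3 at 24 h, and 12 and 10 in βTC3. Values that changed sign were Kcnj10 under the hydroxamic acids in αTC1 at 6 h (-0.0092) and in βTC3 at 24 h (-0.0146) and Kcnip1 in βTC3 at 24 h (0.0722) in batches 4 to 6, and Kcnj4 (-0.0923), Kcne2 (-0.0294) and Kcnip3 (0.0928) under the anilides in βTC3 at 24 h in batches 7 to 10. Of all single-gene values under alternatives, 1525 kept their direction and side of the threshold, 117 kept the direction but lost the call and 6 changed sign.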

Other observations

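At 1 h, a time that enters none of the comparisons above, limma called 0 members under either class in either line. Of all genes 0.593% passed in αTC1 and 0.906% in βTC3 under the hydroxamic acids, and 0.0169% and 0.0254% under the anilides. At an unadjusted p under 0.05 there were 1 and 2 members in αTC1 under the hydroxamic acids and the anilides, and 5 and 2 in βTC3. Of all 11807 genes 769 and 320 lay under that threshold in αTC1, and 1017 and 696 in βTC3. Scriptaid at 1 h in αTC1 raised 1 member past the threshold (0.0423% of all genes).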
